A study of Mus musculus with 16 samples.

Results

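The 10 genes described here make up the MHC class I presentation pathway as chosen by name: the heavy chains H2-K1, H2-D1, H2-T23 and H2-M3, the light chain B2m, the peptide transporter genes Tap1 and Tap2, the loading chaperone Tapbp, the trimming enzyme Erap1 and the regulator Nlrc5. They are 10 of the 32697 genes in the table of counts, and all 10 passed the filter on low counts that left 16040 genes for testing. RNA was sequenced in 16 libraries, 4 from each of 4 genotypes, from YUMM1.7 tumours of 200 to 350 mm3. YUMM1.7 is a mouse melanoma line that was grafted into female mice, with no other treatment, and by the series design the RNA came from sorted cDC1s, the type 1 conventional dendritic cells. The genotype labels are IKKbFF, IKKbdeltaXCR1, IRF1FF and IRF1deltaXCR1, called Ikbkb control, Ikbkb-deleted, Irf1 control and Irf1-deleted below. By these labels the controls carried the floxed allele of their set. The deletions are named after Xcr1, a chemokine receptor gene of cDC1s, and the labels say no more about the driver, the age of the mice or whether replicates came from separate animals. P-values therefore measure the spread between libraries, which may be technical. The notes on the mice name only the Ikbkb genotypes, so the Irf1 groups rest on the genotype label.

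MHC class I molecules display peptides cut from proteins of the cell to CD8 T cells. Proteasome products are pumped into the endoplasmic reticulum by the TAP transporter, trimmed by ERAP1 and placed by tapasin, the product of Tapbp, onto a heavy chain paired with beta-2 microglobulin. cDC1s are known for loading class I with peptides of proteins taken up from other cells, which is called cross-presentation. Transcription of the pathway is induced by interferons through factors such as IRF1, is raised by NF-kB at upstream sites, and is driven by NLRC5 together with RFX, CREB and NF-Y proteins. IKK-beta, the product of Ikbkb, is the kinase that releases NF-kB from its inhibitors, so both deleted genes belong to known inputs of these promoters.

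In GENCODE M21 (mm10), 7 of the genes lie on chromosome 17, which holds the mouse MHC. These are Tapbp (33915899 to 33929292), H2-K1 (33996017 to 34000347), Tap1 (34187553 to 34197225), Tap2 (34203527 to 34216321), H2-D1 (35262730 to 35267499), H2-T23 (36029773 to 36032855) and H2-M3 (37270220 to 37274484). B2m lies on chromosome 2 (122147686 to 122153083), Erap1 on chromosome 13 (74639568 to 74693201) and Nlrc5 on chromosome 8 (94434356 to 94527272).

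Promoter sequences in RefSeq (GRCm38.p6, the assembly also called mm10) show such letters close together in the classical genes. Entries were found for 8 of the 10 genes, and Tap2 and Nlrc5 had none. Positions are counted backwards from the base before the transcription start. The first 2 sequences are shown because they hold most of the known inputs in a short stretch, upstream of a classical heavy chain and of the light chain. In capitals are matches, on either strand, to 5 motifs. These are the kappa B core bound by NF-kB, the core of the interferon-stimulated response element, and a variant of that core, searched after the sequences had been read. TGACG is part of the X box module and CCAAT, read as ATTGG on the other strand, is the Y box. Overlapping matches were merged.
H2-K1 promoter, bases -200 to -1, chr17:34000348-34000547, minus strand: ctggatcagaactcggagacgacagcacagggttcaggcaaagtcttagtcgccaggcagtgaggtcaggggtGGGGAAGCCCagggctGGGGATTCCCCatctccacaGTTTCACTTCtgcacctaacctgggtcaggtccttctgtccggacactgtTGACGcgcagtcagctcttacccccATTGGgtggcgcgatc
B2m promoter, bases -200 to -3, chr2:122147487-122147684, plus strand: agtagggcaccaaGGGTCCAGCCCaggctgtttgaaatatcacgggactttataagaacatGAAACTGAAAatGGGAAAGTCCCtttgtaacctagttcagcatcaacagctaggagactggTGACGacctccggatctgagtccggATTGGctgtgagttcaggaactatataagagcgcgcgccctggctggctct

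The next 5 stretches show the interferon response match in each heavy chain gene and in B2m. Capitals mark the same matches as above, and in B2m and H2-T23 the interferon match alone.
H2-K1, -111 to -82, chr17:34000429-34000458, minus strand: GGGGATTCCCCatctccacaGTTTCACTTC
H2-D1, -171 to -142, chr17:35262923-35262952, plus strand: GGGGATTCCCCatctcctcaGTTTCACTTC
H2-M3, -126 to -93, chr17:37270108-37270141, plus strand: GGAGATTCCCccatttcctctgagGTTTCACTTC
B2m, -149 to -120, chr2:122147538-122147567, plus strand: ataagaacatGAAACTGAAAatgggaaagt
H2-T23, -134 to -105, chr17:36032806-36032835, minus strand: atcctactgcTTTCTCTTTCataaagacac
The stretches of H2-K1 and H2-D1 differed at 1 of 30 bases. Those of H2-D1 and H2-T23 lie within exons of GENCODE M21, whose gene models start further upstream than the RefSeq entries. In the 250 bases before the start, the interferon core was found in B2m (GAAACTGAAA) and H2-T23 (TTTCTCTTTC, its other strand) and in 3.05% of 27025 promoters of the table. Its variant was found in H2-K1, H2-D1 and H2-M3, each time as GTTTCACTTC, and in 1.47% of promoters. The kappa B core and TGACG were each found in H2-K1, H2-D1, H2-M3, B2m and Tap1, that is in 5 of 8 members, and in 45.4% and 17.8% of promoters. CCAAT was found in 7 of 8 members and in 34.5% of promoters. A match describes letters in the sequence and is not a measured binding site.

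Among the 10 genes the amounts of mRNA spanned a wide range, in the same order in all 4 groups. On the scale of CPM (counts scaled to library size) per kilobase of exon, averaged over 16 libraries with SD, B2m stood at 3067 ± 952, H2-D1 at 1243 ± 629 and H2-K1 at 534 ± 315. Tapbp followed at 140.1 ± 86.5, then the nonclassical heavy chain H2-T23 at 86.2 ± 67.6, Tap1 at 64.4 ± 52.4 and H2-M3, which presents formylated peptides, at 55.1 ± 24.2. Tap2 stood at 34.9 ± 28.0, Erap1 at 15.2 ± 3.69 and Nlrc5 at 4.23 ± 3.04. The light chain and both classical heavy chains thus led the order and the transcriptional regulator closed it. Each gene exceeded the next in at least 15 of 16 libraries, with a mean log2 ratio above its SD over libraries, apart from Tap1, which exceeded H2-M3 in 6 of 16 libraries. Lengths were those of all exons in GENCODE M21, and the length of the longest coding transcript gave the same order. Reads shared among near-identical class I genes may have been lost or split in counting, so the levels of the H2 genes are uncertain to that extent. Exons of Tap1 overlap those of Psmb9 on the other strand over 212 bases (3.87% of its exons), and those of Erap1 overlap Cast over 834 bases (11.5%). The strand setting of the counting was not given in the sources used here, so reads of these stretches cannot be told apart.

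**Figure D1:**
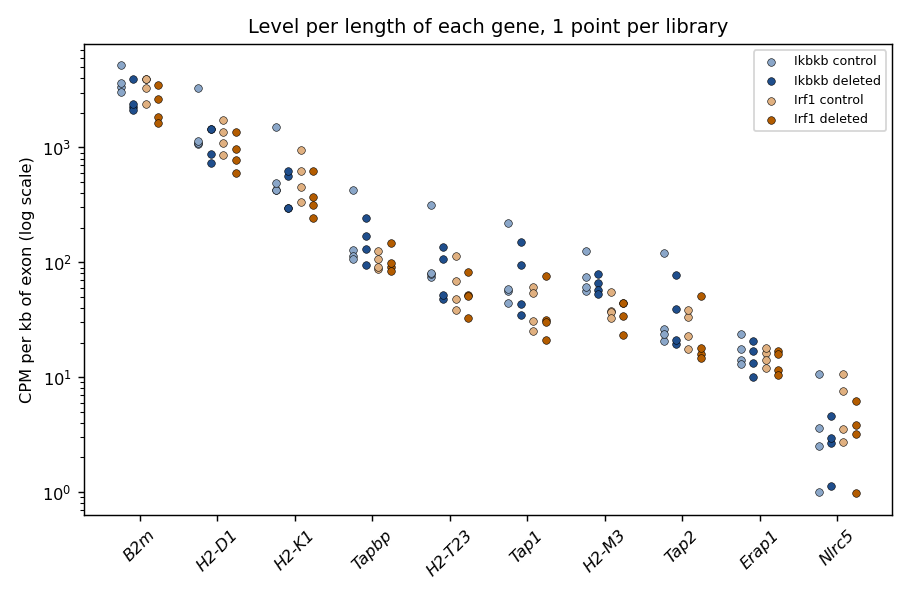
CPM per kilobase of exon (log scale) for each of the 10 genes, with 1 point per library and a colour per group. B2m, H2-D1 and H2-K1 lie highest and Nlrc5 lowest in every group, and Tap1 and H2-M3 overlap.

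Before the comparisons, the labels and libraries were checked. Libraries held 16478671 to 27433818 counts, and the 10 genes took 0.458% to 1.795% of them. Ikbkb stood at 44.5 to 120.8 CPM in its controls and 28.5 to 46.3 in the deleted libraries. Irf1 stood at 141 to 268 CPM in its controls and at 98.6 to 145 in 3 libraries of the deleted group, while the library labelled Irf1-deleted replicate 1 had 299, more than any Irf1 control. The cDC1 markers were present in all groups, but their summed level ran from 781 to 8618 CPM, and Ikbkb control replicate 3 (8220.1) and Ikbkb-deleted replicate 1 (8618) stood apart from the other 14 libraries, which had at most 3709.7. Markers of T and NK cells summed to 44.0 to 1859.9 CPM, those of macrophages to 933 to 11854 and those of fibroblasts and endothelium to 6349 to 31368, against 2.28 to 16.8 for melanoma markers. Xcr1 and Clec9a of cDC1s, Cd3e of T cells and C1qa of macrophages had counts in all 16 libraries, while the melanoma gene Pmel was at 0 in 4 and at most at 3.45 CPM. The libraries thus held RNA of several cell types, and in such bulk samples fewer cells of a type and less RNA per cell cannot be told apart.

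Deletion of Ikbkb asks whether cDC1s without IKK-beta express less of the class I pathway. No gene of the pathway passed the test, although all 10 had a lower mean. The fitted log2 fold changes ran from -0.68 for H2-T23 to -0.17 for Erap1, with a median of -0.41, against a median of -0.018 over all genes tested, of which 52.2% lay below 0. By edgeR's quasi-likelihood test with Benjamini-Hochberg adjustment, 0 of 10 members and 0% of 16040 genes were called, and every member had an adjusted p of 1. Ikbkb itself was not called either, at -0.79 (SE 0.33, adjusted p = 0.988 by the same test), and its groups overlapped. The deletion itself thus did not pass in these libraries, which held RNA of several cell types. No member reached an unadjusted p under 0.05, which 4.79% of genes did, and the libraries of both groups overlapped for every member, while they did not overlap for 1.7% of genes. DESeq2 called 38 genes and limma voom 0, none of them a member.

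Among the classical heavy chains, H2-K1 stood at 1247, 1248, 4427 and 1442 CPM in Ikbkb control replicates 1 to 4. In the Ikbkb-deleted replicates it stood at 1661, 1831, 880.3 and 879. Control replicate 3 was thus the highest of all 16 libraries, while deleted replicates 1 and 2 lay above the other 3 controls and replicates 3 and 4 below them. Its log2 fold change was -0.67 (SE 0.45, 95% interval -1.63 to 0.29). H2-D1, the more abundant classical chain, stood at 2755, 2842, 8515 and 2940.2 CPM in the controls and at 3757, 3699, 1896 and 2267 in the deleted libraries. The same libraries were high and low as for H2-K1, and the log2 fold change was -0.55 (SE 0.38).

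The nonclassical chain H2-T23, whose product is a ligand of inhibitory receptors on NK cells, stood at 216, 229.7, 912 and 232 CPM in the controls. In the deleted libraries it stood at 391, 311, 137 and 151, so that 3 tightly grouped controls lay between both pairs of deleted libraries. H2-M3 stood at 80.2, 88.4, 179 and 107 CPM against 115, 95.1, 82.1 and 76.6. Their log2 fold changes were -0.68 (SE 0.51) and -0.30 (SE 0.27).

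B2m, without which the heavy chains do not reach the cell surface in stable form, stood at 2864, 3118, 4456 and 2636 CPM in the Ikbkb controls. Its values after deletion were 1952, 3359, 1807 and 2067. The 3 deleted libraries other than replicate 2 were below every control, and replicate 2 was above all controls but replicate 3. The log2 fold change of -0.51 (SE 0.27, 95% interval -1.08 to 0.07) had an unadjusted p of 0.0786 by edgeR's quasi-likelihood test.

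Tap1 and Tap2, which encode the subunits of the transporter, varied widely between libraries of a group. Tap1 stood at 240.0, 310.2, 1199 and 319.6 CPM in the controls and at 826, 521, 189 and 235 in the deleted libraries. Tap2 stood at 98.3, 77.4, 455 and 89.8 CPM against 293, 147, 72.7 and 79.7. For both subunits control replicate 3 was highest and deleted replicate 1 the second highest of the 16 libraries, which are the same libraries that stood apart in cDC1 markers. Tapbp, whose product bridges the transporter and the heavy chain, stood at 468, 415, 1548 and 384 CPM against 889, 609, 342 and 473. Log2 fold changes were -0.22 (SE 0.57) for Tap1, -0.28 (SE 0.60) for Tap2 and -0.28 (SE 0.40) for Tapbp, so the intervals covered changes of over 1 log2 unit in the lower direction.

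Erap1, which shortens peptides to the length that class I binds, varied least of the 10 genes, with 2.36-fold between its highest and lowest library. It stood at 102, 128, 172 and 94.8 CPM in the Ikbkb controls and at 149, 96.6, 72.6 and 123 in the deleted libraries, which gave a log2 fold change of -0.17 (SE 0.25). Nlrc5 varied most, 11-fold, and stood at 21.5, 8.47, 90.3 and 30.6 CPM against 9.61, 38.9, 22.5 and 25.0. Unlike for the other genes, the deleted library high in cDC1 markers was the lowest of its group for Nlrc5. The log2 fold change of Nlrc5 was -0.65 (SE 0.67).

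**Figure D2:**
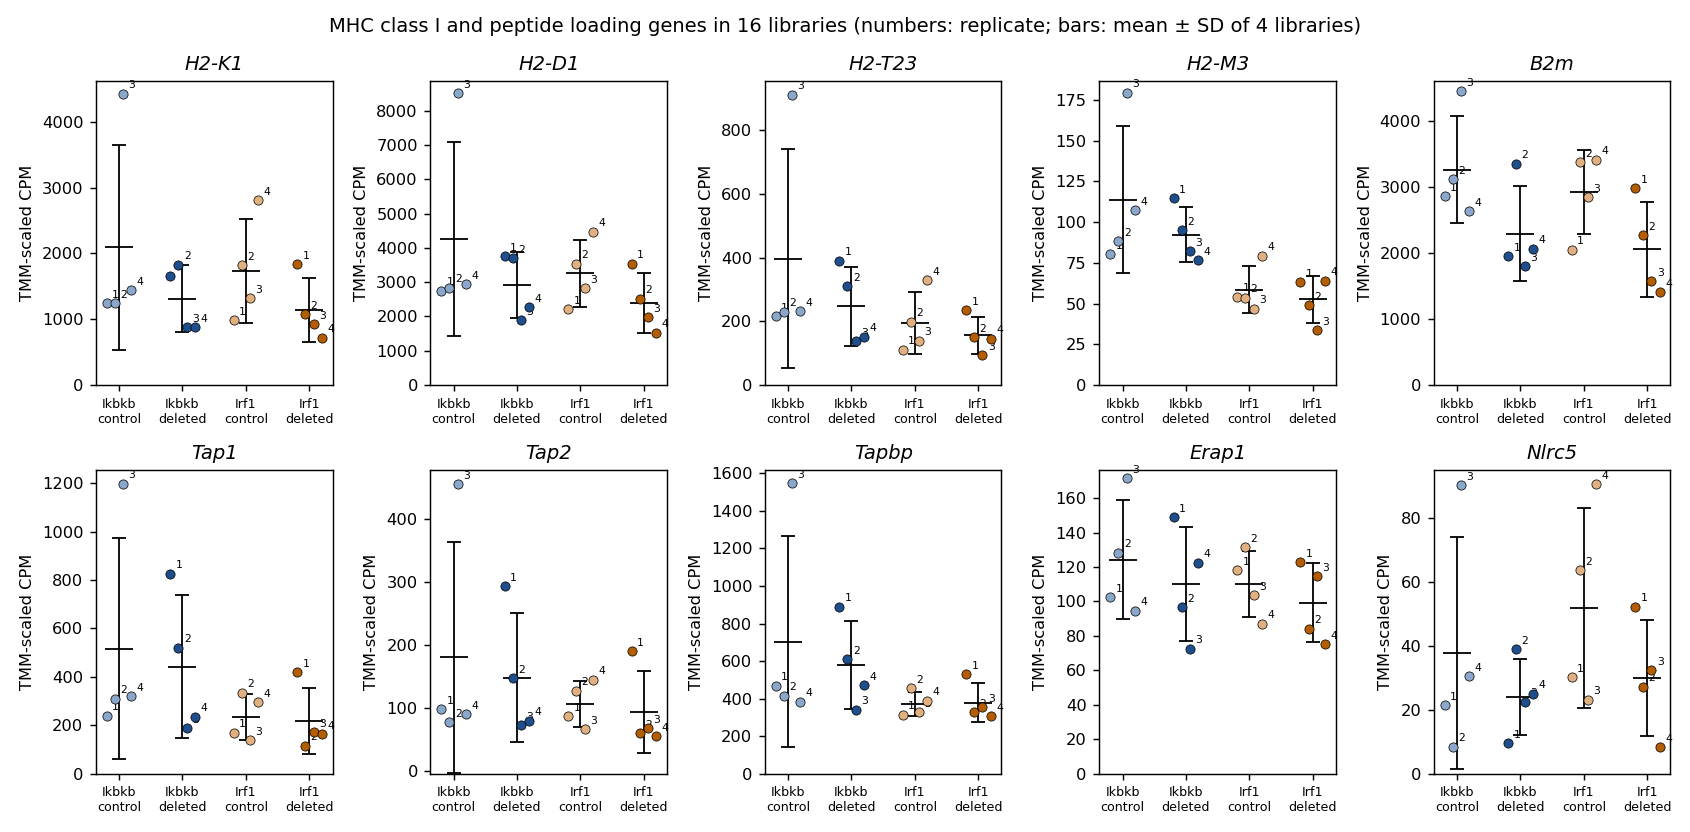
TMM-scaled CPM of each gene (linear axis from 0, or just below where a bar reaches under 0) in the 4 groups, with points numbered by replicate and bars for the mean ± SD of 4 libraries. Ikbkb control replicate 3 is the highest of the 16 libraries for 9 of 10 genes, and the deleted and control libraries of each set overlap in every panel.

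The lower means after Ikbkb deletion rested on 1 library. Ikbkb control replicate 3 was the highest of all 16 libraries for 9 of 10 members, and for Nlrc5 it had 90.3 CPM against 90.6 in Irf1 control replicate 4. Without it, 3 of 10 members had a lower mean after deletion and the median log2 fold change was 0.07. Tap1 then stood at 0.60, Tap2 at 0.73 and Tapbp at 0.44, H2-K1 at -0.01 and H2-D1 at 0.02, while B2m stayed at -0.33. Without Ikbkb-deleted replicate 1, the library with the most cDC1 markers, all 10 members were lower, with a median of -0.64. With both left out, a setting added after the data were seen, 6 of 10 were lower and the median was -0.12. H2-K1 then stood at -0.14, B2m at -0.26, Tap1 at 0.11 and Nlrc5 at 0.51. With limma voom and quality weights, 6 of 10 members were lower and Tap1, Tap2, Tapbp and Nlrc5 were higher. No member was called in any of these fits.

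**Figure D3:**
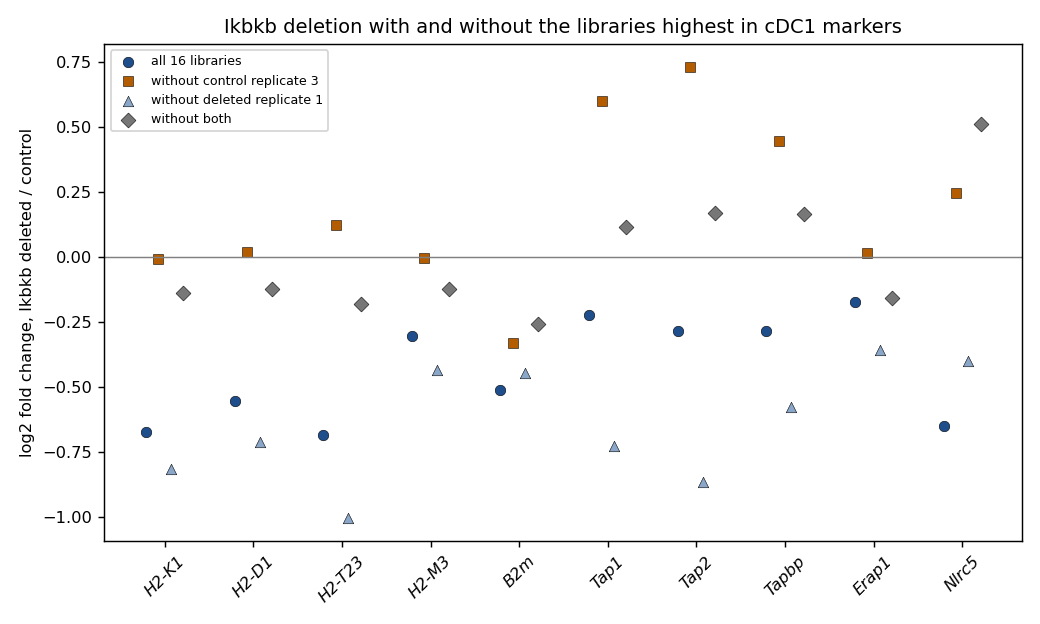
Log2 fold change after Ikbkb deletion (vertical axis) of each gene with all 16 libraries and without Ikbkb control replicate 3, without Ikbkb-deleted replicate 1, or without both. All 10 genes lie below 0 with all libraries, 3 of 10 without the control library and 6 of 10 without both.

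These 2 libraries differed from each other in what they held besides cDC1 markers. Ikbkb control replicate 3 had 1859.9 CPM of T and NK cell markers against 241 in Ikbkb-deleted replicate 1, and 23.97 against 0.68 CPM of Ifng, the gene of interferon gamma. It had 892 against 343 CPM of Irf1. H2-K1 stood at 4427 against 1661 CPM, B2m at 4456 against 1952 and Nlrc5 at 90.3 against 9.61 in the same libraries, while Tap1 stood at 1199 against 826 and Erap1 at 172 against 149. The ratio of the control to the deleted library was 9.39 for Nlrc5, 2.67 for H2-K1, 2.27 for H2-D1, 2.33 for H2-T23 and 2.28 for B2m. It was 1.56 for H2-M3, 1.45 for Tap1, 1.55 for Tap2, 1.74 for Tapbp and 1.15 for Erap1. With 1 library on each side there is no replicate check, and the part of cell content in this difference was not tested.

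Deletion of Irf1 asks the same of a factor that binds interferon response elements. Again no member was called. By edgeR's quasi-likelihood test 0 of 10 members and 0% of genes were called, with an adjusted p of 1 for every member. Irf1 itself, at a log2 fold change of -0.26 (SE 0.40), was not called, so this deletion did not pass the test either. A lower mean was seen for 9 of 10 members, with a median log2 fold change of -0.25, against -0.015 over all genes, of which 51.7% were below 0. No member reached an unadjusted p under 0.05, which 2.61% of genes did, and no member had groups that did not overlap, which 2.89% of genes had. DESeq2 called 6 genes and limma voom 0, none of them a member.

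The heavy chains were spread over similar ranges in both Irf1 groups. H2-K1 stood at 987, 1821, 1320.1 and 2811 CPM in Irf1 control replicates 1 to 4 and at 1841, 1081, 921 and 719 in the libraries labelled Irf1-deleted. H2-D1 stood at 2215, 3537, 2823 and 4476 CPM against 3543, 2523, 1986 and 1532. In both genes the library labelled Irf1-deleted replicate 1, which had more Irf1 RNA than any Irf1 control, lay above 3 of 4 controls. Replicate 4 of that group was the lowest of all 16 libraries. In RNA of several cell types, the Irf1 level of a library does not show whether its cDC1s had lost the gene. Log2 fold changes were -0.61 (SE 0.45) for H2-K1 and -0.45 (SE 0.38) for H2-D1. H2-T23 stood at 111, 199.5, 139 and 329.9 CPM against 236, 151, 94.1 and 146, and H2-M3 at 54.2, 53.5, 46.9 and 79.3 against 63.2, 49.1, 33.7 and 64.1. Their log2 fold changes were -0.31 (SE 0.51) and -0.15 (SE 0.27), and each was smaller than its SE.

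B2m stood at 2054, 3384, 2851 and 3418 CPM in the Irf1 controls and at 2983, 2274, 1576 and 1405 in the libraries labelled Irf1-deleted, a log2 fold change of -0.51 (SE 0.27) with an unadjusted p of 0.0801 by edgeR's quasi-likelihood test. This was close to the value after Ikbkb deletion. Tap1 stood at 169.9, 334, 138 and 295 CPM against 419, 116, 170.5 and 164, and Tap2 at 86.8, 127, 66.5 and 145 against 190.4, 59.7, 67.8 and 55.3. For both transporter subunits and for Tapbp the library labelled Irf1-deleted replicate 1 was the highest of all 8 libraries of its set, so that their log2 fold changes were -0.11 (SE 0.57), -0.19 (SE 0.60) and 0.03 (SE 0.40). Tapbp stood at 314, 457, 329 and 389 CPM against 530.2, 327, 354 and 306.

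Erap1 stood at 118, 132, 103 and 87.0 CPM in the Irf1 controls against 123, 84.3, 115 and 75.3, a log2 fold change of -0.15 (SE 0.25). Nlrc5 stood at 30.1, 63.7, 23.1 and 90.6 CPM against 52.3, 27.2, 32.4 and 8.24. Its log2 fold change of -0.79 (SE 0.67, 95% interval -2.21 to 0.63) was the most negative of the 10 and also the least precise. The library labelled Irf1-deleted replicate 1 was the highest of its group for 9 of 10 members, and replicate 4 was the lowest of all 16 libraries for 6. Without replicate 1 all 10 members were lower, with a median of -0.67, B2m at -0.74 and Nlrc5 at -1.20. Without Irf1 control replicate 4, which was the highest control for 7 members, 6 of 10 were lower and the median was -0.12. No member was called in either fit.

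**Figure D4:**
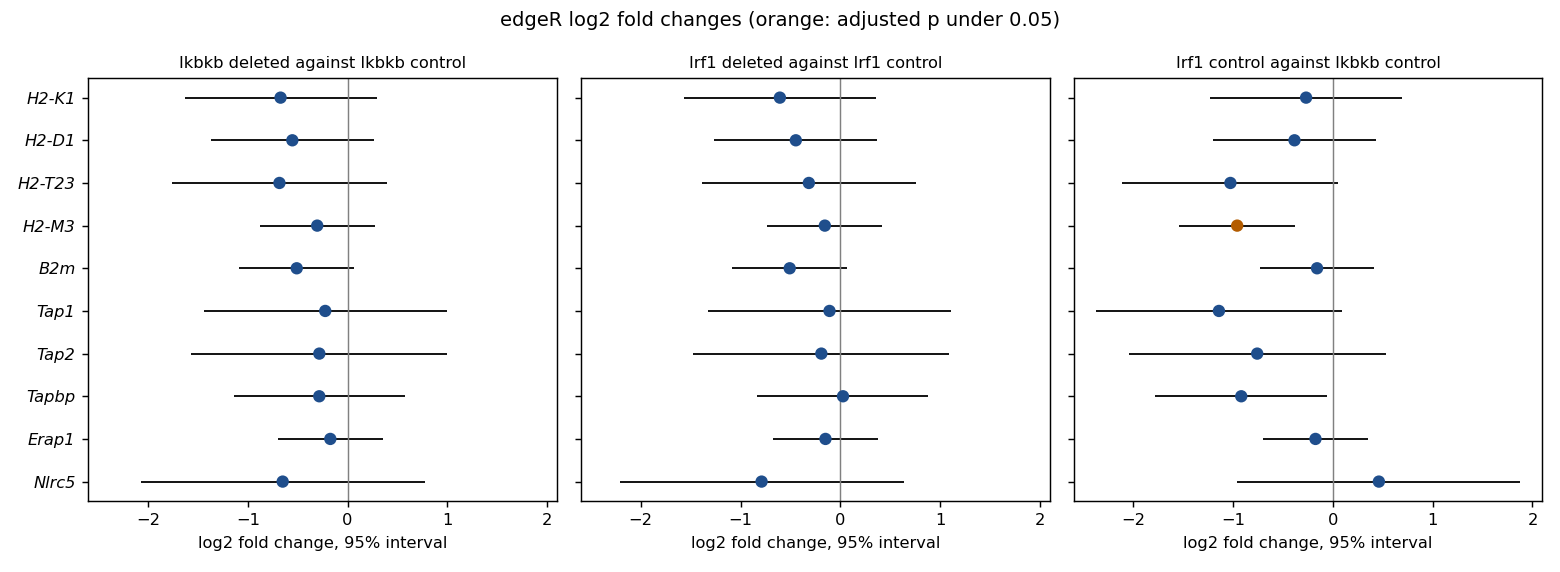
Log2 fold change (horizontal axis) of each gene with its 95% interval from edgeR, for both deletions and for the Irf1 controls against the Ikbkb controls. Every interval covers 0 in the deletions, and in the third panel the coloured point of H2-M3 (-0.96) is the called one.

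The 2 deletions were then compared directly. The difference of both effects (Irf1 minus Ikbkb) ran from -0.14 for Nlrc5 to 0.37 for H2-T23, with SEs of 0.35 to 0.94 and a median of 0.10. With all libraries it was below 0 for Nlrc5 alone, against 46.5% of genes. This direction rested on single libraries: without Ikbkb control replicate 3 the difference was below 0 for 10 of 10 members (median -0.45), and without Ikbkb-deleted replicate 3 or Irf1-deleted replicate 1 (by its label) for 7 (medians -0.06 and -0.19). Without Irf1 control replicate 3, Irf1 control replicate 1 or Ikbkb-deleted replicate 4 it was below 0 for 6, 5 and 5 members. It was below 0 for 9 members with limma voom (median -0.11) and for 9 without both libraries high in cDC1 markers (median -0.23). In the fit to all libraries 0 of 10 members and 0% of genes were called, at adjusted p of 0.99997 for the members by edgeR's quasi-likelihood test. An unadjusted p under 0.05 was reached by 455 genes (2.84%) and by no member, and DESeq2 called 12 genes and limma voom 0. For B2m the difference was 0.00 (95% interval -0.81 to 0.81). Over both sets together, the mean of both effects was below 0 for 10 of 10 members, against 51.7% of genes, with a median of -0.37. Without Ikbkb control replicate 3 it was below 0 for 7 members with a median of -0.09, with limma voom for 7 with a median of -0.105, and without both libraries high in cDC1 markers for 8 with a median of -0.14. With Irf1-deleted replicate 1, as labelled, left out instead, the median was -0.58. In that mean 0 of 10 members and 0% of genes were called, while 842 genes (5.25%) had an unadjusted p under 0.05, DESeq2 called 27 and limma voom 0. B2m was the member with an unadjusted p under 0.05, with a log2 fold change of -0.51 (SE 0.19, 95% interval -0.91 to -0.10), an unadjusted p of 0.0176 and an adjusted p of 0.942 by edgeR's quasi-likelihood test. Its mean was below 0 in all 23 alternative settings, from -0.63 to -0.36. So were those of H2-K1, H2-D1, H2-T23, H2-M3, Erap1 and Nlrc5, and the settings reuse largely the same libraries. The markers of T and NK cells moved the same way: 16 of 16 had a mean effect below 0, with a median of -1.205 and 0 called, and their summed level was 723 ± 763 (SD, n = 4) against 305 ± 139 CPM in the Ikbkb set and 270 ± 301 against 113 ± 72.9 in the Irf1 set. Also below 0 were 6 of 6 markers of type 2 conventional dendritic cells (median -0.474) and 9 of 10 of macrophages (-0.518). So were 7 of 10 fibroblast and endothelial (-0.222), 3 of 3 tested melanoma (-0.844) and 3 of 5 tested B cell markers (-0.276). Of cDC1 and neutrophil markers, 4 of 12 and 2 of 6 were below 0, and no marker was called. The part of any of these cell types in the lower class I means was not tested.

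H2-M3 was the member that differed between the control groups. Its libraries did not overlap, as for 17.5% of genes, with 80.2 to 179 CPM in the Ikbkb controls and 46.9 to 79.3 in the Irf1 controls, and its log2 fold change was -0.96 (SE 0.27, adjusted p = 0.0333 by edgeR's quasi-likelihood test). This is 1 member of 10, against 12.6% of genes called in that comparison and 5.84% called lower, and 7.16% of genes had non-overlapping groups in the lower direction. A share of 1 in 10 lies near that background. The call was kept in 8 of 15 alternative settings, with adjusted p from 0.00694 to 0.104, and was lost with no filter on low counts (adjusted p = 0.0624), without Ikbkb control replicate 3 (log2 fold change -0.65, adjusted p = 0.0901) and without Ikbkb control replicate 4 (adjusted p = 0.058) or Irf1 control replicate 1, 2 or 3 (adjusted p 0.0816, 0.091 and 0.104). An unadjusted p under 0.05 was reached by 2 members, the other being Tapbp, and by 28.3% of genes. Of the other members, 8 had a lower mean, against 50.2% of genes below 0, in the Irf1 controls, from -1.14 for Tap1 (SE 0.58, adjusted p = 0.212) to -0.16 for B2m. Nlrc5 had a higher one, 0.46 (SE 0.67). Without Ikbkb control replicate 3, 4 of 10 were lower and the median went from -0.57 to 0.025. The floxed allele and the set of libraries cannot be told apart here. The fibroblast and endothelial markers differed in the same comparison, with 7 of 10 called higher in the Irf1 controls. They summed to 9285 to 9626 CPM in the Ikbkb controls against 11567 to 31368 in the Irf1 controls. Lower means were seen for 16 of 16 T and NK cell markers (median -1.41, 0 called) and 5 of 5 tested B cell markers (median -2.85, 1 called). So it was for 10 of 12 cDC1 (median -0.99), 6 of 10 macrophage and 2 of 6 neutrophil markers, with 0 called. Of type 2 dendritic cell and tested melanoma markers, 3 of 6 and 1 of 3 were lower. The part of any of these in the H2-M3 difference was not tested.

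The remaining genes of the pathway came from lists in which the same test was used. The background for lower means in each list is 52.2% of all genes after Ikbkb deletion and 51.7% after Irf1 deletion. Of 14 other class I and class I-like genes, 13 were tested. After Ikbkb deletion 12 of them had a lower mean, with a median of -0.69. After Irf1 deletion 10 had one, with a median of -0.79, and none was called in either. An unadjusted p under 0.05 was reached by 2 after Ikbkb deletion, against 4.79% of genes, and by 0 after Irf1 deletion, against 2.61%. In the mean of both effects 3 reached it, against 5.25% of genes. H2-Q7, a nonclassical chain, stood at 225 ± 209 against 119 ± 64.1 CPM in the Ikbkb set and at 113 ± 85.5 against 62.0 ± 42.4 in the Irf1 set. H2-Q10 had the smallest p after Ikbkb deletion, at -1.87 (SE 0.80, unadjusted p = 0.0337, adjusted p = 0.988 by edgeR's quasi-likelihood test). Its level was very low, at 1.38 ± 1.04 against 0.37 ± 0.18 CPM in the Ikbkb set. Fcgrt, which encodes the neonatal Fc receptor, a class I-like molecule that presents no peptide, had log2 fold changes of -0.23 (SE 0.21) and 0.27 (SE 0.21). Hfe, the class I-like regulator of iron uptake, was lower in the Irf1 controls than in the Ikbkb controls, at 67.7 ± 9.30 against 128 ± 49.4 CPM (log2 fold change -0.92, SE 0.26, adjusted p = 0.0326 by edgeR's quasi-likelihood test). Between the control groups 1 of the 13 genes was thus called, against 12.6% of all genes.

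The general chaperones that fold heavy chains had small fitted changes. Of 6 loading and folding genes, 5 had a higher mean after Ikbkb deletion and 6 after Irf1 deletion, with medians of 0.15 and 0.085 and none called. The lower one after Ikbkb deletion was Tapbpl, a tapasin-like peptide editor, at -0.68 (SE 0.50), against 0.22 (SE 0.50) after Irf1 deletion. Pdia3, the oxidoreductase of the loading complex, stood at 2265 ± 143 CPM in the Ikbkb controls and 2312 ± 337 in the deleted libraries, log2 fold change 0.03 (SE 0.15). Canx, the chaperone of newly made heavy chains, had the smallest p after Ikbkb deletion at 0.31 (SE 0.17, unadjusted p = 0.086 by edgeR's quasi-likelihood test), and Calr stood at 0.15 (SE 0.19) and 0.12 (SE 0.19) in the 2 deletions. Tapbpl was also lower in the Irf1 controls than in the Ikbkb controls at 40.02 ± 12.2 against 132 ± 106 CPM (log2 fold change -1.73, SE 0.52, adjusted p = 0.0396 by the same test). It was 1 called gene of 6 in that comparison, in which 12.6% of all genes were called.

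Of 10 genes that supply or trim peptides, 9 were matched by symbol and tested. A lower mean was seen for 8 after Ikbkb deletion (median -0.20) and 7 after Irf1 deletion (median -0.09), and none was called. Psmb8, an immunoproteasome subunit, stood at 905 ± 548 against 762 ± 386 CPM in the Ikbkb set and 329 ± 157 against 295 ± 166 in the Irf1 set. Psme2, a subunit of the proteasome activator, was lower in the Irf1 controls than in the Ikbkb controls (137 ± 68.1 against 322 ± 154 CPM, log2 fold change -1.24, SE 0.34, adjusted p = 0.0307 by edgeR's quasi-likelihood test). This is 1 gene of 9 called between the control groups, against 12.6% of all genes. Of 19 regulators, 15 had a lower mean after Ikbkb deletion and 12 after Irf1 deletion, with medians of -0.23 and -0.04 and none called. Irf9, a component of the interferon-stimulated factor ISGF3, had the smallest p after Ikbkb deletion at -0.76 (SE 0.36, unadjusted p = 0.0501, adjusted p = 1), and Stat2 of the same complex after Irf1 deletion at -0.85 (SE 0.52). Jak1, a kinase of interferon receptors, was higher in the Irf1 controls (353 ± 66.3 against 199 ± 66.3 CPM, log2 fold change 0.83, SE 0.24, adjusted p = 0.0345 by the same test). Of the 19 regulators 1 was called in that comparison, against the same 12.6% of all genes.

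Across the 16 libraries the 10 genes varied together to different degrees. All 45 pairs had a positive Pearson r of log2 CPM, with a median of 0.68. The highest, 0.98, was between H2-K1 and H2-D1, and Tap1 and Tap2 had 0.94, while H2-M3 and Nlrc5 had 0.06. Within the 8 libraries of the Ikbkb set all 45 pairs were positive (median 0.79), and within the Irf1 set 43 were (median 0.695). The pairs below 0 there were H2-M3 with Erap1 (r = -0.345, against 0.65 in the Ikbkb set) and H2-T23 with Erap1 (r = -0.11, against 0.75). H2-M3 and Nlrc5 had r of 0.54 within the Ikbkb set and 0.23 within the Irf1 set. These are descriptions, since all pairs share libraries and scaling. The ratio of H2-K1 to H2-D1 counts stayed between 0.388 and 0.628 in all 16 libraries, although the level of H2-K1 itself varied 6.16-fold. That ratio did not differ beyond the spread between libraries in either deletion (exact two-sided permutation p = 0.429 and 0.457, where 4 against 4 libraries can reach 0.0286).

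Levels were then related to the summed CPM of cell type markers and to Irf1 and Nlrc5, 59 relations in all. Of these, 31 passed a Benjamini-Hochberg adjusted p under 0.05 of Pearson's r (two-sided permutation test, 100000 resamples). Only the members were related in this way, so the share of all genes that would pass is not known. A relation that passed is thus not shown to be particular to the class I genes. The transporter and tapasin genes were related to the cDC1 markers. For Tap2 r was 0.90 (adjusted permutation p = 0.000148) and Spearman's rho 0.78 (adjusted permutation p = 0.00639), for Tap1 0.86 and 0.72, and for Tapbp 0.86 and 0.66. Without the 2 libraries farthest from the median of the marker sum r was 0.73, 0.66 and 0.60 (unadjusted permutation p 0.00286, 0.0109 and 0.0249). Within the 8 libraries of the Ikbkb set r was 0.95, 0.88 and 0.92, and within the Irf1 set 0.74, 0.87 and 0.73. For H2-K1, H2-D1, H2-T23, H2-M3 and Erap1 the relation with cDC1 markers passed over all 16 libraries (r 0.58 to 0.71) and fell to 0.12 to 0.33 without the 2 farthest, so it rested on those libraries. B2m (r = 0.24, rho = 0.27) and Nlrc5 (r = 0.18, rho = 0.28) did not pass, at adjusted permutation p of 0.468 and 0.588.

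The heavy chains and B2m were related to the T and NK cell markers. H2-T23 had r = 0.86 and rho = 0.75, H2-K1 0.81 and 0.68, H2-D1 0.81 and 0.71, H2-M3 0.80 and 0.74, and B2m 0.74 and 0.73, with adjusted permutation p of r from 0.000354 to 0.00399. Without the 2 farthest libraries these 5 genes had r of 0.66 to 0.74. Within the Ikbkb set r was 0.92 for H2-K1 and 0.83 for B2m, and within the Irf1 set 0.94 and 0.76. H2-D1 had 0.89 and 0.88 within these sets, and H2-T23 had 0.84 and 0.89. H2-M3 had 0.87 within the Ikbkb set but 0.53 within the Irf1 set (exact permutation p = 0.183, not adjusted). Tap1, Tap2 and Tapbp also passed (r 0.71 to 0.78), with 0.46 for Tapbp without the 2 farthest libraries. Erap1 (r = 0.32) and Nlrc5 (r = 0.49) did not pass over 16 libraries. Nlrc5 had r of 0.80 within the Ikbkb set and 0.81 within the Irf1 set (exact permutation p = 0.013 and 0.0159, not adjusted). Whether r differed between the cDC1 and T cell markers was not tested, and both sums were themselves related at r = 0.47.

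**Figure D5:**
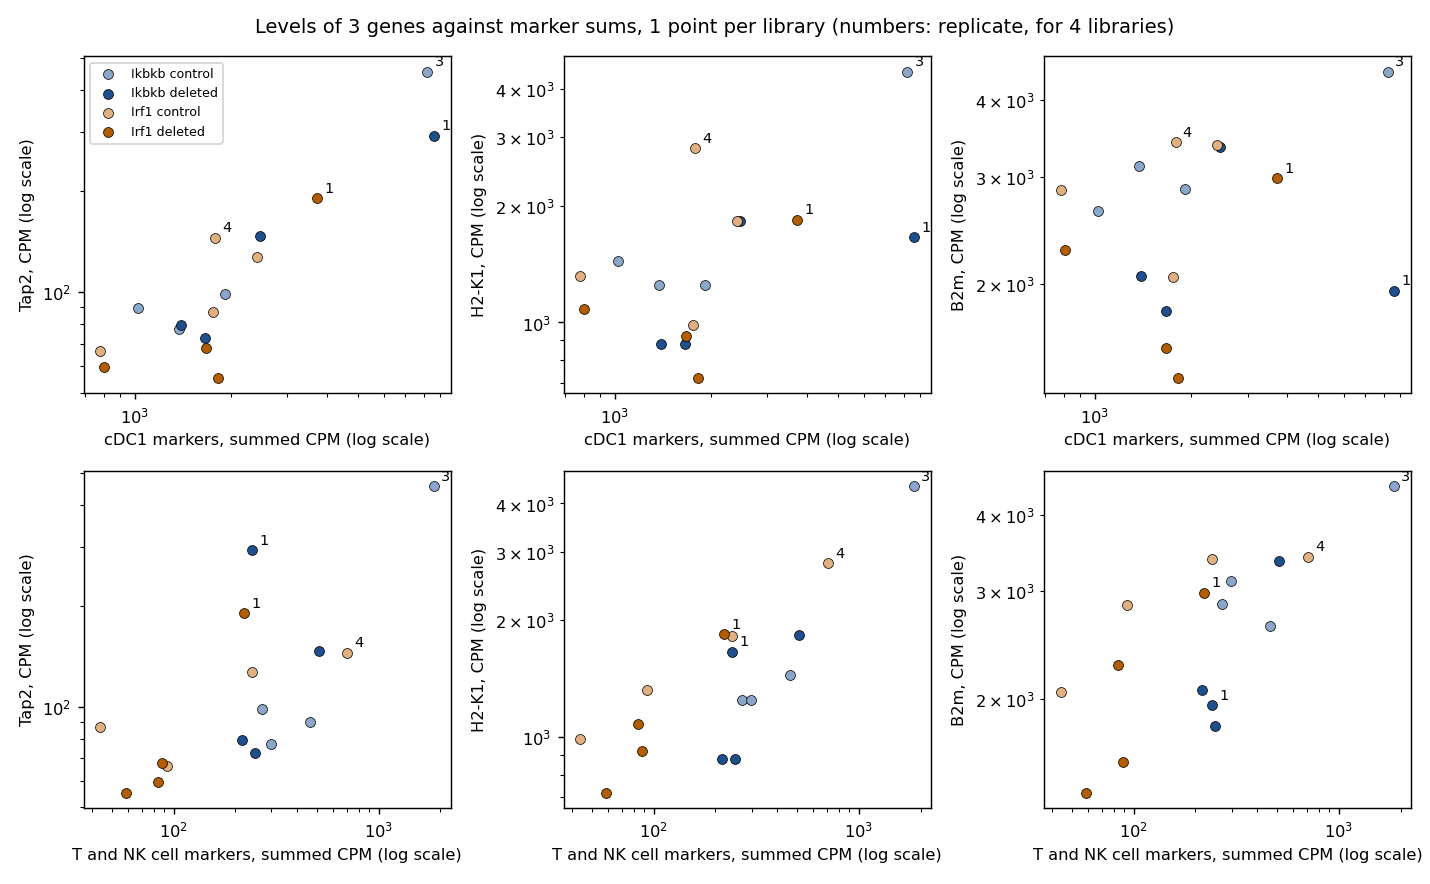
CPM of Tap2, H2-K1 and B2m (log scale) against the summed CPM of cDC1 markers (upper panels) and of T and NK cell markers (lower panels, log scale), with 1 point per library and replicate numbers on 4 of them. In the upper panels Ikbkb-deleted replicate 1 is second highest for Tap2 but lies at 1952 for B2m, and in the lower panels the libraries with the largest marker sums are highest for H2-K1 and B2m.

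Irf1 itself was related to 9 of 10 members. The highest r were 0.88 for Tap1 (rho 0.87), 0.87 for H2-T23 (rho 0.81) and 0.86 for Tapbp (rho 0.87), each with an adjusted permutation p of 0.000148, and Nlrc5 did not pass (r = 0.40, adjusted permutation p = 0.2). The unadjusted p behind those 3 values, 1e-05, is the smallest that the resamples can give. Without the 2 libraries farthest in Irf1, Tap1 and H2-T23 kept r of 0.82 and 0.81, and Erap1 fell from 0.55 to 0.15. H2-K1 fell from 0.78 to 0.52, H2-D1 from 0.83 to 0.58 and B2m from 0.72 to 0.46. Tap2 went from 0.83 to 0.67 and Tapbp to 0.73. H2-M3 kept 0.81, but its r within the Irf1 set was 0.41 (exact permutation p = 0.323, not adjusted). Within each set r with Irf1 was positive for all 10 members. Nlrc5 was related to H2-K1 (r = 0.68, rho = 0.67), H2-D1 (0.61 and 0.56) and B2m (0.61 and 0.62), and the other 6 members did not pass over 16 libraries. For those 3 genes r was 0.57 to 0.61 within the Ikbkb set (exact permutation p 0.12 to 0.15) and 0.80 to 0.90 within the Irf1 set. Tap2 had r of 0.81 within the Irf1 set (exact permutation p = 0.0101, not adjusted) and 0.41 within the Ikbkb set. All 9 r with Nlrc5 were positive in both sets. Macrophage markers passed with no member, and r was positive for 2 of 10 members within the Ikbkb set and for 10 of 10 within the Irf1 set. Fibroblast and endothelial markers passed with 3 members in the negative direction: H2-M3 (r = -0.80, rho = -0.91), Tap1 (r = -0.61, rho = -0.66) and H2-T23 (r = -0.56, rho = -0.61). For H2-M3 r was -0.15 within the Ikbkb set and -0.68 within the Irf1 set (exact permutation p = 0.707 and 0.062). Tap1 had -0.25 and -0.53 (exact permutation p = 0.567 and 0.178), and H2-T23 had -0.12 and -0.66 (exact permutation p = 0.778 and 0.0723). None of these relations passed within either set.

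Outside all lists, the genes most like the 10 members were sought by Pearson's r between log2 CPM and the mean of the members' standardized levels over 16 libraries, among 9548 genes whose log2 CPM averaged 3 or more. The 8 highest were Sp110 (r = 0.97), Trim30a (0.96), Phf11b (0.96), Tppp3 (0.95), Samhd1 (0.94), Trim14 (0.93), Sp100 (0.93) and Rftn1 (0.92). Within each set of 8 libraries r was at least 0.887 for each of them. Sp110, Trim30a, Samhd1 and Sp100 are known as interferon-stimulated genes. These values are ranks among many genes and carry no test.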

How the data were processed

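The authors deposited raw counts for each Ensembl gene, not normalized. The submitters' processing notes list STAR 2.5.3a, HTSeq 0.6.1p1, cutadapt 1.10, bcl2fastq 2.17.1.14 and the mm10 assembly. Which annotation release and strand setting were used was not given in the sources used here. Per the labels, cDNA came from 1000 pg of RNA by SMART-Seq v4 with 12 cycles of PCR, and no molecular identifiers mark the original molecules. Of 32697 genes, 32684 matched a symbol in GENCODE M21.

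Counts were analysed with edgeR 4.0.16 in R 4.3.3. Genes were kept by filterByExpr (minimum count 10, minimum total 15) and libraries were scaled by TMM. The quasi-likelihood model held a mean for each of the 4 groups, with no covariate, and was fitted to the 16 libraries together. P-values were adjusted by Benjamini-Hochberg over 16040 genes, and an adjusted p under 0.05 was a call. CPM are counts relative to the scaled library total, and intervals of fold changes are 95%. Alternatives were RLE and upper-quartile scaling, no filter, a 5 CPM filter, DESeq2 1.42.0, limma 3.58.1 (voom), separate fits of both sets, and fits without single libraries. On counts simulated for the Ikbkb deletion over 16040 genes, the test recovered 88% of 50 genes changed by -2 log2 units, 92% at 2, 96% at 3 and 100% at -3. The changed genes had a mean log2 CPM of 3 or more. Counts were drawn independently for each gene, with no shift shared by the genes of a library. Changes as small as those fitted for the members were not simulated. The members, gene lists and tests were chosen with earlier results of these data known. Genes named from the pathway lists were every called gene, and otherwise the 2 of highest CPM and the 1 with the smallest p in each deletion. Hspa5, Psme1, Psmb10, Lnpep and Irf8 also met this rule and are not described, and none of them was called. Replicates are numbered by accession order.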

Additional observations from a re-analysis of the deposited data

Results flagged for a closer look

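A library was listed here when its gap to the nearest other library of its group, as a share of the group's range, passed Dixon's 95% limit for 4 samples. Over 40 independent combinations of gene and group, chance alone would give about 1 in 20, or 2. The genes vary together over the same libraries, so that number does not measure what chance gives here. In these data 8 of the 40 passed. Ikbkb control replicate 3 accounts for 6 of them, as the highest of its group for H2-T23 (gap share 0.977), H2-D1 (0.968), Tap2 (0.945), H2-K1 (0.939), Tapbp (0.928) and Tap1 (0.917). The same library was high in cDC1 markers, in T and NK cell markers and in Irf1, and their part in its class I level was not tested. Ikbkb-deleted replicate 2 was high for B2m (0.832), at 3359 CPM against at most 2067 in the other 3 libraries. The library labelled Irf1-deleted replicate 1 was high for Tap2 (0.907), at 190.4 CPM against at most 67.8. It also had the highest Irf1 level of the Irf1 set and 3709.7 CPM of cDC1 markers, the most of that set, and their part was not tested.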

How the results depend on the processing

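No member was called in either deletion, in their difference or in their mean under any setting. The direction of fold changes that were not called was less stable. Of 930 alternative log2 fold changes of single members, 107 had the opposite sign to the reported one, 62 of them in the difference between the deletions, 16 in the Ikbkb deletion, 11 between the control groups, 10 in the Irf1 deletion and 8 in the mean of both. Of 93 alternative medians of the members, 10 had the opposite sign: 7 in the difference, 2 between the control groups and 1 in the Ikbkb deletion. Leaving out Ikbkb control replicate 3 turned the median in each of these 3 comparisons, from 0.10 to -0.45, from -0.57 to 0.025 and from -0.41 to 0.07. The H2-M3 call between the control groups was lost in 7 of 15 settings. With DESeq2 the genes called numbered 38 in the Ikbkb deletion, 6 in the Irf1 deletion, 12 in their difference, 27 in their mean and 3171 between the control groups, where limma voom called 4130 and a table with no filter 1199. Members with a lower mean after Ikbkb deletion numbered 6 with limma voom, 6 without both libraries high in cDC1 markers, and 3 to 10 when single libraries were left out. Between the control groups they numbered 4 without both libraries and 4 to 9 when single libraries were left out. Leaving out single libraries gave 0 to 1 genes called in the Ikbkb deletion, 0 to 1 in the difference and 782 to 2404 between the control groups, and 0 to 1 members called there, with 0 members under no filter and without both libraries. The lowest counts came without Irf1 control replicate 3 (782), replicate 2 (850.0) and Ikbkb control replicate 2 (1067), with 1180.0 without Irf1 control replicate 1 and 1342 without Ikbkb control replicate 1. The cause was not tested. Relations called numbered 7 in the Ikbkb set alone, 16 in the Irf1 set alone, 16 without the 2 farthest libraries, and 20 to 33 when single libraries were left out, with 20 without Ikbkb control replicate 3; fewer libraries entered each of these. No paired analysis was possible because the replicate numbers come from the order of the samples and the labels pair no libraries. With 4 libraries a group, SEs of 0.25 to 0.67 log2 units set what could be detected for these genes, and no count was near 0.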

Other observations

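Within libraries, Tap1 counts were 2.44 to 4.01 times those of Tap2 in the Ikbkb controls and 2.60 to 3.55 times in the Ikbkb-deleted libraries, against 1.96 to 2.63 and 1.94 to 2.96 times in the Irf1 controls and the libraries labelled Irf1-deleted. The ratio did not differ beyond the spread in either deletion (exact two-sided permutation p = 0.771 and 0.4), and the difference between the sets was not tested. The ratio of Tap1 to B2m counts varied more, from 0.0483 to 0.423 over 16 libraries, and was highest in Ikbkb-deleted replicate 1 (0.423), the library with the most cDC1 markers.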
